A study of Mus musculus with 34 samples.

Results

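Il18bp encodes interleukin-18 binding protein, and its locus was described here from the histone mark H3K27ac and from binding of LXR, SMAD4 and RBPJ in mouse liver macrophages, blood monocytes and cultured macrophages. Members were the regions whose nearest named gene was Il18bp and whose midpoint lay within 100000 bp of its start: 9 of the 84647 regions in the table of monocytes, repopulating liver macrophages (RLM) and Kupffer cells, and 11 of the 95038 regions in the table of bone marrow-derived macrophages (BMDM). Added to them were the 57 factor peaks, of 496538 in 12 libraries, that overlapped these regions. The gene was chosen by its H3K27ac tags in BMDM, which were higher with the Notch ligand DLL4 than without, so that contrast is given as a description with no test. The farthest region lay 19452 bp from the start, so none stood near the distance threshold.

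Interleukin-18 is a cytokine of the interleukin-1 family that is matured by inflammasome caspases and drives interferon-gamma production by T and NK cells. The binding protein is secreted, captures mature interleukin-18 and keeps it from its receptor. Its gene is known as a target of interferon-gamma, with roles described for IRF1 and C/EBPβ at the promoter. H3K27ac is an acetylated histone tail that marks active promoters and enhancers, and it is not a measure of RNA or protein. DLL4 binds Notch receptors on a neighbouring cell, and the cleaved receptor then joins the DNA-binding protein RBPJ. LXR is a nuclear receptor for oxysterols, and SMAD4 is the shared partner of the SMADs that act below TGF-β and BMP receptors.

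The series held 34 samples, of which 22 had values here and 12 were inputs. H3K27ac was measured in 2 libraries of each of 5 groups: untreated blood Ly6C high monocytes of C57BL/6J mice, RLM of Clec4f-cre/Rosa26iDTR mice 24 h after diphtheria toxin, untreated Kupffer cells, and BMDM of C57BL/6J mice cultured for 4 days, either untreated or with DLL4 for 24 h. In Clec4f-cre/Rosa26iDTR mice the toxin receptor is driven in cells that express the Kupffer cell gene Clec4f, so toxin removes resident Kupffer cells and RLM are the cells that fill the niche. The strain of the Kupffer cells used for H3K27ac was labelled C57BL/6J on the samples and given as Clec4f-Cre/DTR in the study's design text. RLM differed from monocytes and Kupffer cells in toxin treatment and, by the sample labels, in mouse strain. Neither can be told apart from the cell type. The groups are not a time course, so a rise, fall or step names a difference between groups. Factor binding was measured in 2 libraries each of LXR in Kupffer cells of Clec4f-cre mice and in C57BL/6J BMDM cultured for 7 days with the LXR agonist GW3965 for 18 h, and of SMAD4 and RBPJ in Kupffer cell nuclei of Clec4f-cre mice and in untreated C57BL/6J BMDM cultured for 4 days. No label ties a library to its own animal or culture, and the 2 libraries of a group may be technical repeats, whose spread is all that the p-values take into account. In bulk chromatin a change in the mix of cells and a change in acetylation per cell cannot be told apart.

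Il18bp (gene identifier 16068) lies on chromosome 7 at 102015074-102018232, minus strand, in GRCm38.p6, the assembly that mm10 represents. The promoter is shown because peaks of LXR in Kupffer cells and of SMAD4 in Kupffer cell nuclei lay over it. These are the 250 bases before the RefSeq start, chr7:102018233-102018482 on the minus strand, 5′ to 3′, with capitals marking a match to the C/EBP motif and a match to the short SMAD motif.
Il18bp promoter: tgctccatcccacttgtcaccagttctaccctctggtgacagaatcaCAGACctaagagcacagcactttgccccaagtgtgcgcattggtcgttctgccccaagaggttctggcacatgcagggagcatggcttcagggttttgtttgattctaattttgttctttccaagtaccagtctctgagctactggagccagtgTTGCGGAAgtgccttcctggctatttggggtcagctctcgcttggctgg
The C/EBP motif TTGCNNAA matched once, as TTGCGGAA with its first base 49 bases before the start, and this motif was present in 9.56% of 32851 RefSeq promoters of the same length. The SMAD motif GTCTG matched once on the opposite strand, as CAGAC 203 bases before the start, and 42.2% of promoters held it. The ETS core GGAA was matched 3 times on both strands, once inside the C/EBP match, and 93.4% of promoters held it. The RBPJ motif TGGGAA, the interferon response element GAAANNGAA and the SMAD palindrome GTCTAGAC had no match on either strand in this window. Distances below are those of the files, whose Il18bp start lies 77 bp inside the gene from the RefSeq start.

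The member regions, each 2000 bp wide, formed 7 elements when midpoints up to 1000 bp apart were joined. The promoter and a region annotated to the 5′ UTR in exon 3 of 7 (NM_010531) made up the start element at chr7:102016323-102019251. Upstream of it lay an element 1.4 kb away at chr7:102018507-102020558, annotated to the 3′ UTR of NM_001360748. Elements 7.5 kb (chr7:102024399-102026954) and 10 kb (chr7:102027148-102029179) upstream fell in intron 6 of 8 of NM_029211, the transcript of the neighbouring gene Rnf121. Elements 13.8 kb (chr7:102030898-102033630) and 17 kb (chr7:102034116-102036116) upstream fell in intron 4 of 8 of the same transcript, and the last was listed only in the BMDM table. An element 19 kb downstream (chr7:101997703-102000652) was annotated to exon 14 of 25 of NM_133947, the transcript of Numa1. Of the member regions, 7 of 9 and 9 of 11 overlapped another one and so shared tags with it.

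H3K27ac over Il18bp rose from monocytes to RLM and from RLM to Kupffer cells. Summed over the 9 regions, the level was 19.8 and 21.8 CPM in the monocyte libraries and 94.3 and 71.1 in the RLM libraries. The Kupffer cell libraries had 370 and 481 CPM. At gene level CPM is tags per 1 M tags over the genes tested, after TMM scaling. Region values below are per 1 M tags over the regions tested, with their own TMM factors. Gene and region levels are therefore not on the same scale. The groups did not overlap, and the lowest library of each lay above the highest of the group before it. The share of all genes that separate in this way is not given here, so nothing is read from it. The RLM mean of 82.7 ± 16.4 CPM (SD, n = 2) was 3.97-fold the monocyte mean of 20.8 ± 1.44 (SD, n = 2), a log2 difference of 1.99 with an SE of 0.18 (edgeR quasi-likelihood test, adjusted p = 2.55e-10). The Kupffer cell mean of 425 ± 78.6 CPM (SD, n = 2) was 5.16-fold that of RLM, a log2 difference of 2.37 with an SE of 0.17 (edgeR, adjusted p = 4.49e-13). Against monocytes it was 20.5-fold higher, a log2 difference of 4.36 with an SE of 0.19 (edgeR, adjusted p = 6.46e-19). These 3 comparisons share libraries. An exact permutation test of 2 libraries against 2 cannot go below p = 0.333.

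A gene was called at an adjusted p under 0.05 and a change of at least 2-fold. By that rule 6.2% of the 16749 genes tested were called higher and 5.8% lower in RLM against monocytes, 14.6% and 12.8% in Kupffer cells against RLM, and 18.4% and 14.4% in Kupffer cells against monocytes. Il18bp was called higher in each of them. Its log2 difference ranked 169th from the highest in RLM against monocytes, 338th in Kupffer cells against RLM and 81st in Kupffer cells against monocytes.

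**Figure D1:**
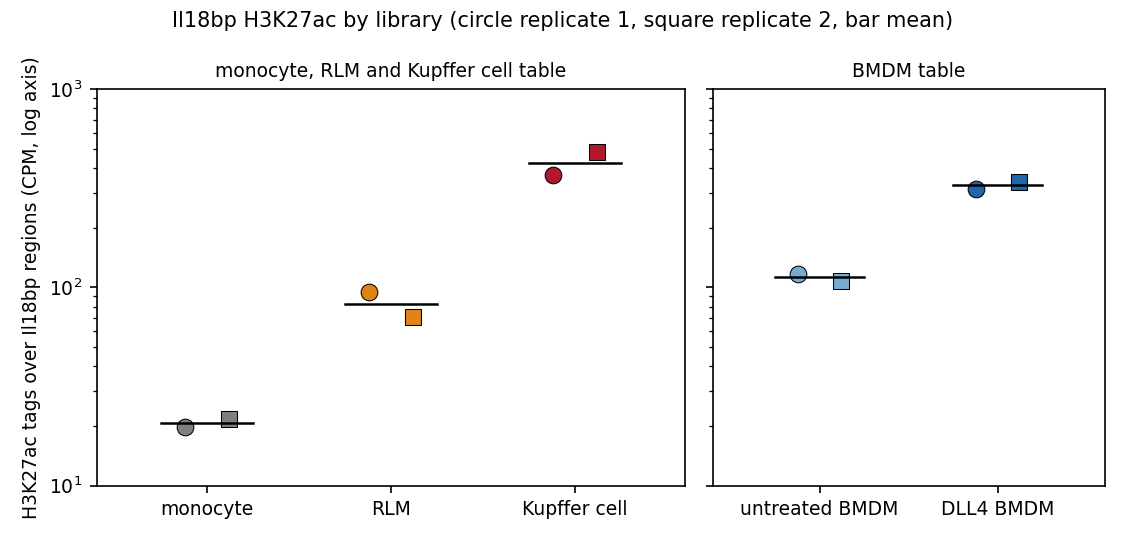
H3K27ac over Il18bp regions (CPM, log axis) in each library of the 2 tables, with circles for replicate 1, squares for replicate 2 and a bar at the group mean. Levels stepped up from 19.8 and 21.8 in monocytes to 370 and 481 in Kupffer cells, and stood at 313 and 340 in DLL4-treated BMDM beside 117 and 107 in untreated BMDM.

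In BMDM, the contrast on which the gene was chosen, the 11 regions summed to 117 and 107 CPM in the untreated libraries and to 313 and 340 CPM in the DLL4 libraries. The DLL4 libraries were both higher, with a mean of 327 ± 19.2 CPM (SD, n = 2) against 112 ± 7.06 (SD, n = 2), or 2.91-fold. The fitted log2 difference was 1.54 with an SE of 0.06, and it ranked 162nd from the highest of 16421 genes. In that comparison 2.6% of genes were called higher and 1.28% lower, from which nothing is read for Il18bp. The BMDM and liver tables were counted over different region sets, so their levels are not set against each other.

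Tags in regions ranged from 7.37 to 19.5 M per library in the liver table and from 20.2 to 27.2 M in the BMDM table. Summed H3K27ac over 8 Kupffer cell markers was 129 to 150 CPM in monocytes, 451 to 476 in RLM and 1965 to 2250 in Kupffer cells, and 384 to 397 in untreated and 510 to 531 in DLL4-treated BMDM. Clec4f held 69 and 58 tags in monocytes, 65 and 99 in RLM, and 1541 and 4298 in Kupffer cells. In BMDM it held 17 and 33 tags untreated and 12 and 6 with DLL4. Nr1h3 went from 673 and 955 tags to 1445 and 1499, and Timd4 from 47 and 66 to 33 and 49. Of the 8 Kupffer cell markers, 2 were called higher and 0 lower with DLL4, with a median log2 difference of 0.30. The 8 macrophage markers ranged from 315 to 358, 572 to 604 and 1365 to 1538 CPM in the liver groups, and from 1867 to 1892 and 2501 to 2586 in BMDM. Of 6 liver endothelial markers, 5 had regions in the liver table and summed to 78.3 to 86.9, 99.6 to 107 and 186 to 193 CPM. Stab2 (75.7 ± 4.77 CPM in Kupffer cells, 13.6 ± 0.16 in RLM) and Pecam1 (102 ± 11.6 and 65.3 ± 5.29) made up most of the Kupffer cell sum, while Kdr, Lyve1 and Clec4g were lower in Kupffer cells than in RLM at 8.04 ± 0.438, 1.61 ± 0.720 and 1.68 ± 0.820 CPM (SD, n = 2). In BMDM all 6 endothelial markers had regions and summed to 93.2 to 94.4 CPM untreated and 162 to 169 with DLL4. Pecam1 went from 441 and 737 tags untreated to 2143 and 2170 with DLL4, and Oit3 from 730 and 960 to 417 and 486. Of the 6, 1 was called higher and 0 lower with DLL4, and their median log2 difference was 0.11. Of 6 hepatocyte markers, 3 had regions in the liver table (15.8 to 17.1, 19.1 to 20.3 and 48.1 to 50.7 CPM). Apoc3, Serpina1a and Cyp2e1 had none. Ttr held 35 and 20 tags in monocytes, 54 and 53 in RLM, and 250 and 606 in Kupffer cells. Apoa1 held 108 and 133, 52 and 64, and 46 and 97, and Alb 42 and 49, 29 and 68, and 44 and 77. Of these 3, 1 was called higher and 0 lower in Kupffer cells against monocytes. Of 6 neutrophil markers, 5 had regions in the liver table. They summed to 130 to 152 CPM in monocytes, 89.6 to 109 in RLM and 225 to 281 in Kupffer cells. Csf3r made up most of that sum, with 602 and 630 tags in RLM and 1365 and 3951 in Kupffer cells. Ly6g held 46 and 57 tags in RLM and 18 and 22 in Kupffer cells, and S100a9 15 and 32, and 6 and 9. Of these 5 markers, 2 were called higher and 2 lower in Kupffer cells against RLM. The 5 dendritic cell markers summed to 122 to 124, 65.8 to 77.4 and 201 to 213 CPM, with 3 called higher and 1 lower in that comparison. The 7 monocyte markers summed to 663 to 673, 666 to 682 and 606 to 623 CPM, and their members moved in opposite ways. Fn1 went from 593 and 809 tags in monocytes to 4 and 4 in Kupffer cells. Vcan went from 1520 and 1747 to 158 and 283, and Plac8 from 1581 and 1433 to 2705 and 5524. Of the 7, 2 were called higher and 2 lower in Kupffer cells against monocytes, with a median log2 difference of -0.74. In BMDM, neutrophil markers summed to 183 to 208 CPM untreated and 246 to 249 with DLL4, and 2 of 4 B cell markers to 188 to 195 and to 258. With DLL4, 0 of the 6 neutrophil and 0 of the 2 B cell markers tested were called. Of the monocyte markers, 6 summed to 566 to 592 CPM untreated and 474 to 496 with DLL4, and the dendritic cell markers to 108 and to 71.7 to 81.4. The part of these differences in the Il18bp values was not tested.

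The elements did not move in step. In RLM against monocytes, 6 of 9 regions were called higher and 0 lower, where 8.57% of all 80982 regions tested were called higher. Kupffer cells against RLM gave 7 of 9, with 22.3% of all regions called higher, and Kupffer cells against monocytes gave 7 of 9, with 24.9%. The exceptions in every comparison were the 2 regions of the element 19 kb downstream, which held 53 tags each over the 6 libraries, and in RLM also the region 10 kb upstream.

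In Kupffer cells the strongest acetylation was at the promoter. The promoter region, 96 bp upstream of the start, measured 3.55 and 4.87 CPM in monocytes, 17.7 and 14.1 in RLM, and 80.8 and 109 in Kupffer cells. Each group stood clear of the next, which is description only, since the share of all regions that do so is not given. The log2 difference was 1.91 (SE 0.26, edgeR adjusted p = 1.22e-08) in RLM against monocytes and 2.58 (SE 0.23, edgeR adjusted p = 1.76e-15) in Kupffer cells against RLM. The overlapping 5′ UTR region, 832 bp downstream, gave 2.03 (SE 0.27) and 2.43 (SE 0.23) for the same steps.

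At the element 7.5 kb upstream, the region with most tags measured 2.64 and 3.14 CPM in monocytes, 18.7 and 12.8 in RLM, and 51.0 and 75.1 in Kupffer cells. Its log2 difference was 2.43 (SE 0.29, edgeR adjusted p = 2.02e-10) in RLM against monocytes and 2.02 (SE 0.24, edgeR adjusted p = 1.12e-10) in Kupffer cells against RLM. The element 13.8 kb upstream followed the same course at lower levels, with 1.74 and 1.40 CPM in monocytes, 9.85 and 6.60 in RLM, and 23.8 and 31.7 in Kupffer cells. Its steps were 2.37 (SE 0.35) and 1.77 (SE 0.28) on the log2 scale. At both of these distal elements the point estimate of RLM against monocytes was the larger, and the difference between the steps was not tested.

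The element 1.4 kb upstream had its larger step between RLM and Kupffer cells. It measured 1.24 and 2.31 CPM in monocytes, 3.81 and 3.76 in RLM, and 37.1 and 51.9 in Kupffer cells. The RLM libraries lay just above the monocyte libraries, with a log2 difference of 1.09 (SE 0.37, edgeR adjusted p = 0.0214), and this call was lost without monocyte replicate 1 (0.64, adjusted p = 0.316) and without RLM replicate 1 or 2 (1.07, adjusted p = 0.0889, and 1.09, adjusted p = 0.0981). Kupffer cells stood 11.8-fold above RLM, a log2 difference of 3.56 (SE 0.30, edgeR adjusted p = 1.66e-16). The region 10 kb upstream measured 1.65 CPM in each monocyte library, 1.45 and 0.508 in RLM, and 6.80 and 8.51 in Kupffer cells. It was not called in RLM (log2 difference -0.82, SE 0.54, edgeR adjusted p = 0.297), and was called higher in Kupffer cells against RLM (3.03, SE 0.48, edgeR adjusted p = 1.79e-07). It rests on 258 tags over the 6 libraries.

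**Figure D2:**
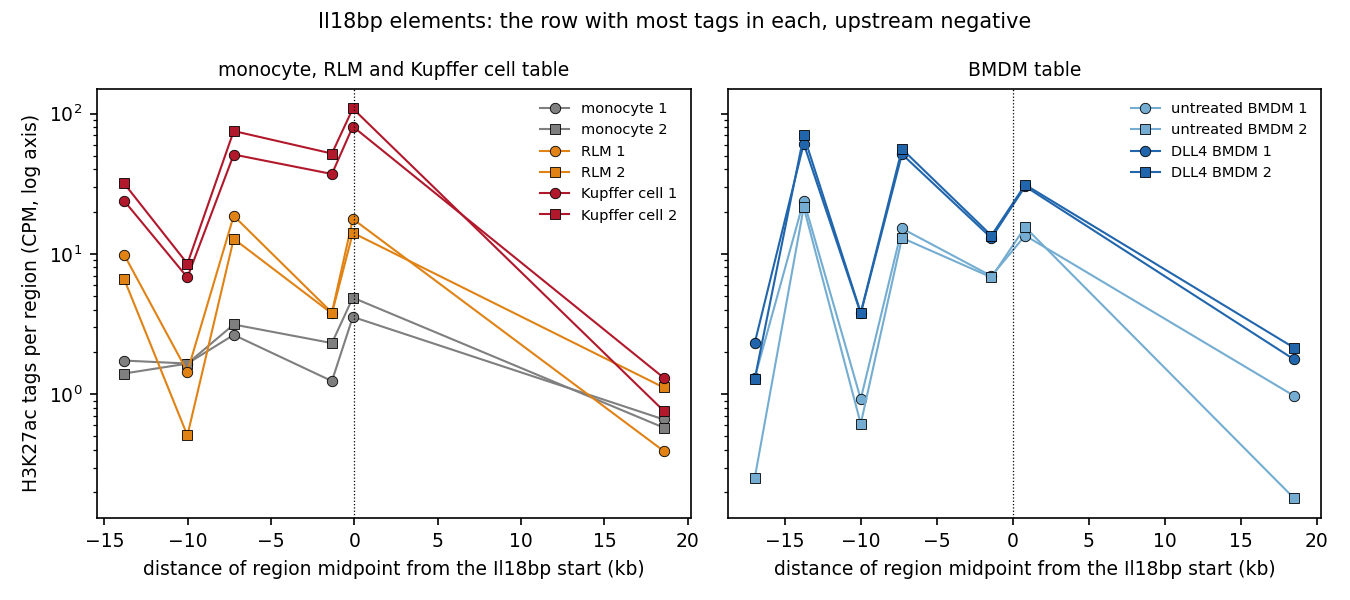
H3K27ac per region (CPM, log axis) against distance of the region midpoint from the Il18bp start (kb, upstream negative), for the region with most tags in each element, 1 line per library. In the liver table the promoter region was highest in Kupffer cells (80.8 and 109 CPM), while in the BMDM table the region 13.8 kb upstream was highest in DLL4-treated cells (60.9 and 69.9 CPM).

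With DLL4, all 11 regions had a positive log2 difference and 10 of 11 were at least 2-fold higher. Of all 82089 regions tested, 4.89% were called higher, a rule that also needs an adjusted p under 0.05. The share of all regions past 2-fold by fold alone is not given, so the counts are not compared. The Il18bp values chose the gene and carry no test. The element 13.8 kb upstream was the most acetylated, at 24.0 and 21.5 CPM in untreated and 60.9 and 69.9 CPM in DLL4-treated BMDM, a log2 difference of 1.53 (SE 0.09). The element 7.5 kb upstream went from 15.2 and 13.0 CPM to 51.4 and 55.9 CPM, a log2 difference of 1.94 (SE 0.10). At the promoter the levels were 12.7 and 14.5 CPM without and 28.8 and 27.1 CPM with DLL4, a log2 difference of 1.03 (SE 0.12). The element 1.4 kb upstream differed least of these 4, with 6.95 and 6.80 CPM against 13.0 and 13.5 CPM (0.94, SE 0.17). At all 4 elements the untreated and DLL4 libraries did not overlap, which is description only, since this contrast chose the gene. The share of all regions that separate in the same way is not given here, so nothing is read from it.

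The remaining BMDM elements held few tags. The region 10 kb upstream had the largest log2 difference, 2.31 (SE 0.41), from 0.923 and 0.615 CPM to 3.77 and 3.80 CPM. Without untreated replicate 1 it was 2.63, and the differences 17 kb upstream and at the pair 19 kb downstream moved from 1.25, 1.81 and 1.70 to 2.82, 3.41 and 3.51. Without untreated replicate 2 these 3 were 0.47, 1.01 and 0.85, and without a DLL4 library they reached lows of 0.77, 1.67 and 0.63, so their size rests on single libraries. The region 17 kb upstream overlapped between groups, with 1.31 and 0.253 CPM in untreated and 2.32 and 1.28 CPM in DLL4-treated cells. Of the pair 19 kb downstream, the nearer region measured 0.972 and 0.181 CPM untreated and 1.77 and 2.14 CPM with DLL4. The farther region overlapped between groups, with 0.486 and 0.0724 CPM untreated and 0.418 and 1.33 CPM with DLL4.

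**Figure D3:**
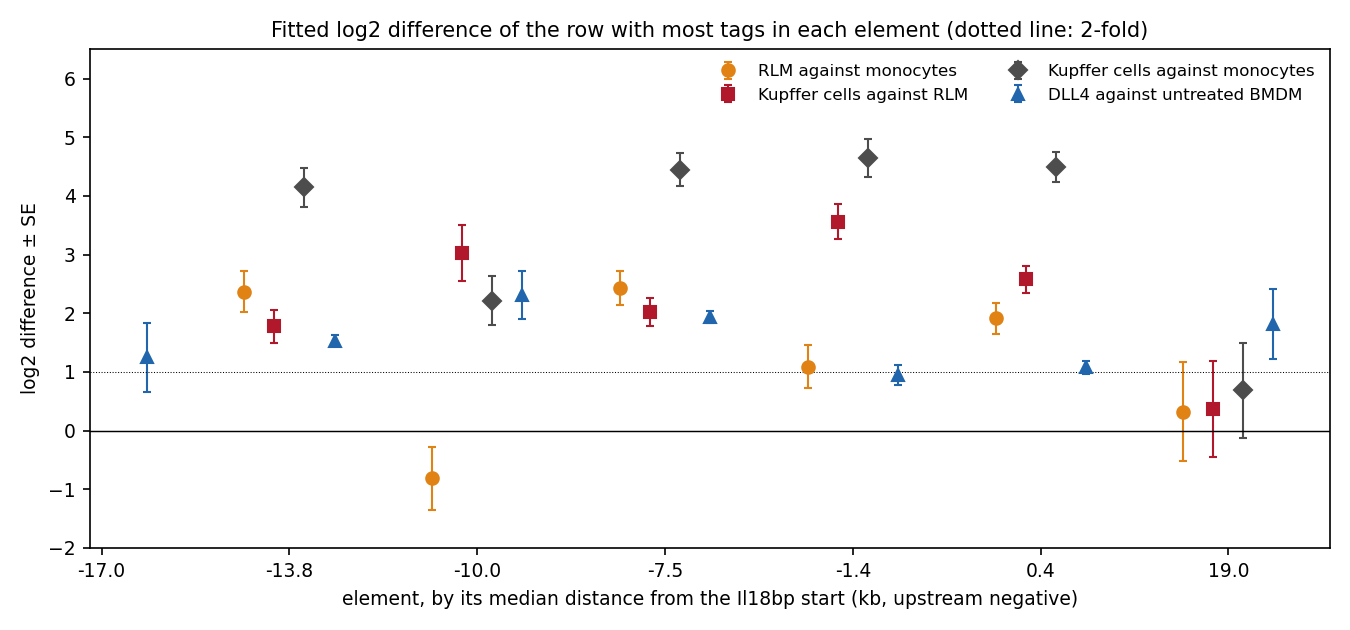
Fitted log2 difference with its SE for the region with most tags in each of 7 elements, in order of distance from the Il18bp start (kb, evenly spaced), in the 3 liver comparisons and in DLL4 against untreated BMDM. The element 1.4 kb upstream had the largest Kupffer cell against RLM difference (3.56) and a DLL4 difference of 0.94, whereas the element 7.5 kb upstream had 2.02 and 1.94.

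The balance between elements can be read within a library, without scaling between libraries, as a ratio of tags. These ratios were computed after the region values had been seen and are given without a test, and their 95% exact binomial intervals cover counting error only. The tags 1.4 kb upstream relative to those 7.5 kb upstream were 0.469 (0.236 to 0.891) and 0.737 (0.436 to 1.23) in monocytes. They were 0.204 (0.132 to 0.306) and 0.294 (0.198 to 0.427) in RLM, and 0.727 (0.626 to 0.843) and 0.691 (0.633 to 0.753) in Kupffer cells. Both RLM libraries lay below every monocyte and Kupffer cell library, and monocytes and Kupffer cells overlapped.

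In BMDM the same ratio was 0.458 (0.373 to 0.560) and 0.524 (0.437 to 0.627) untreated, and 0.252 (0.221 to 0.288) and 0.241 (0.211 to 0.275) with DLL4. The DLL4 libraries were both below the untreated ones. The promoter relative to the element 7.5 kb upstream moved likewise, from 0.837 and 1.12 untreated to 0.561 and 0.484 with DLL4. In the liver table that ratio was 1.34 and 1.55 in monocytes, 0.951 and 1.10 in RLM, and 1.58 and 1.45 in Kupffer cells.

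**Figure D4:**
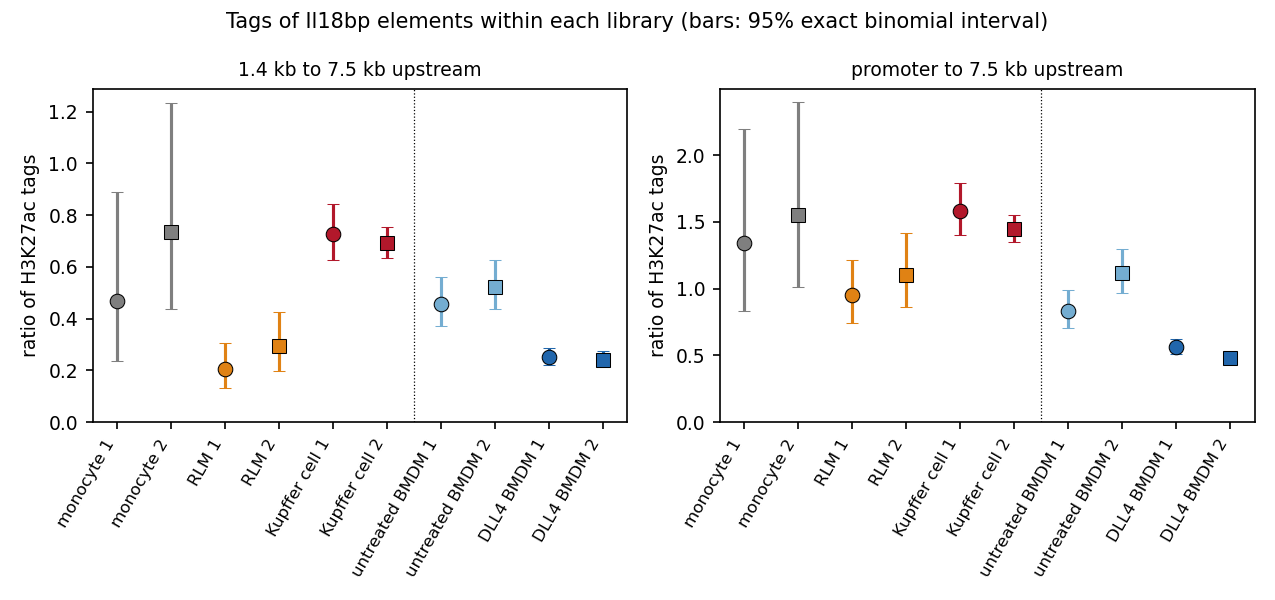
Ratio of H3K27ac tags between Il18bp elements within each of 10 libraries (axis: ratio, no unit; bars: 95% exact binomial interval), 1.4 kb over 7.5 kb upstream and promoter over 7.5 kb upstream. In the panel of 1.4 kb over 7.5 kb, the RLM libraries (0.204 and 0.294) and the DLL4 libraries (0.252 and 0.241) lay below all others.

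The ratio of promoter tags to those of the element 13.8 kb upstream lay on opposite sides of 1 in the 2 tables. Promoter tags were 2.05 and 3.47 times those of that element in monocytes, 1.80 and 2.14 times in RLM, and 3.39 and 3.42 times in Kupffer cells. In BMDM they were 0.529 and 0.678 times untreated and 0.473 and 0.387 times with DLL4. Every library of the liver table was above 1 and every BMDM library below it. The regions counted at this element were not the same bases in the 2 tables, so no difference between cell types is read from this.

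LXR peaks lay over 4 elements in both Kupffer cell libraries and over 3 in both BMDM libraries, and the peak 7.5 kb upstream was the strongest in each. Peak values are the authors' own: tags per 10 M, and fold over the input library. In Kupffer cells that peak had 206 and 122 normalized tags, 137- and 35.1-fold over input, and stood at rank 129 of 41755 and 151 of 69824 peaks by tag count. In GW3965-treated BMDM it had 245 and 293 normalized tags, 31.3- and 35.1-fold over input, at rank 337 of 42233 and 285 of 30354. In all 4 lists fewer than 1% of peaks were higher, from 0.215% to 0.936%.

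At the promoter LXR differed in rank between the lists. In Kupffer cells the peak 85 and 125 bp upstream of the start had 116 and 49.0 normalized tags, at rank 1034 of 41755 and 1509 of 69824. BMDM replicate 1 had a peak 100 bp upstream with 15.8 normalized tags, at rank 32481 of 42233, and a second 455 bp downstream with 32.0. No peak over the start element was listed in BMDM replicate 2. The element 1.4 kb upstream had an LXR peak in all 4 lists, with 41.7 and 20.2 normalized tags in Kupffer cells and 68.4 and 51.3 in BMDM. Ranks from lists of different lengths, agonist states and culture times do not show a change between cell types.

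SMAD4 peaks were listed over 3 elements in both libraries of Kupffer cell nuclei and over 3 in both of BMDM. The peak 7.5 kb upstream had 53.3 and 113 normalized tags in Kupffer cell nuclei, at rank 3037 of 37180 and 1029 of 25369, and 79.9 and 64.6 in BMDM, at rank 4652 of 37103 and 6236 of 28593. The element 13.8 kb upstream was the other element bound in all 4 lists. At the promoter, both Kupffer cell libraries had a peak 125 and 171 bp upstream of the start, with 38.5 and 46.6 normalized tags. Neither BMDM library had a SMAD4 peak over the promoter bases printed above, and replicate 2 had one 431 bp downstream with 51.0 normalized tags.

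RBPJ, the DNA-binding partner of cleaved Notch, was listed in untreated BMDM over 5 elements in both libraries. The strongest of these peaks was 13.8 kb upstream, with 95.2 and 71.5 normalized tags at rank 3215 of 80480 and 6576 of 78976. The peak 1.4 kb upstream had 67.5 and 60.0 normalized tags, and that 7.5 kb upstream had 57.2 and 49.8. In Kupffer cell nuclei no element had an RBPJ peak in both libraries. Replicate 1 had a peak 13.8 kb upstream (5.34 normalized tags, rank 9378 of 13394), and replicate 2 had one 7.5 kb upstream (9.65 normalized tags, rank 1414 of 11277). RBPJ was not measured in DLL4-treated BMDM, so binding and the DLL4 difference come from different cultures.

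**Figure D5:**
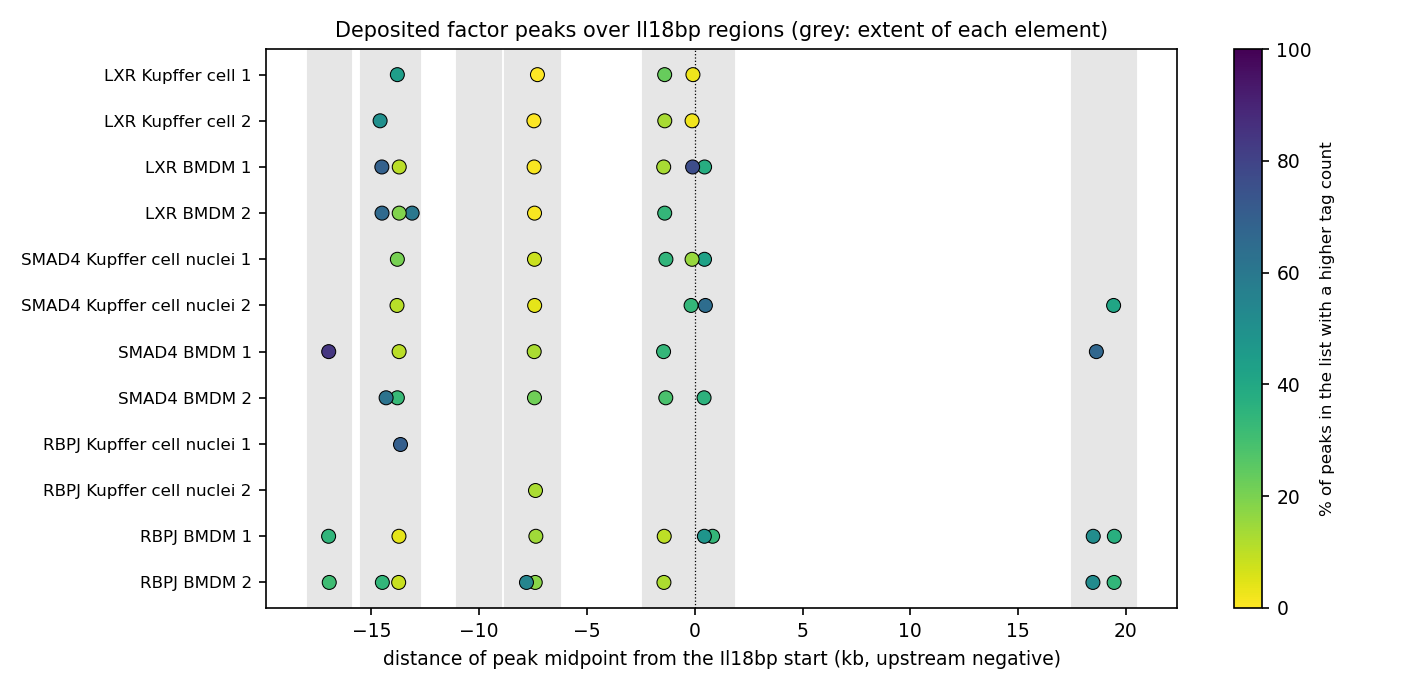
Deposited peaks of LXR, SMAD4 and RBPJ over Il18bp elements (grey), by distance of the peak midpoint from the start (kb, upstream negative), 1 row per library, coloured by the percentage of peaks in that list with a higher tag count. The column 7.5 kb upstream was filled in 11 of 12 lists, and no list had a peak 10 kb upstream.

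At the elements 1.4, 7.5 and 17 kb upstream the strongest peaks of the lists lay close together. Within the element 7.5 kb upstream, the strongest peak of each of 11 lists had its midpoint between 7298 and 7462 bp from the start, a span of 164 bp. At 1.4 kb upstream the midpoints of 9 lists spanned 109 bp, and at 17 kb upstream those of only 3 lists spanned 30 bp. They were spread more widely elsewhere, over 924 bp at 13.8 kb upstream (11 lists), 998 bp at the start element (7 lists) and 834 bp at 19 kb downstream (4 lists). Such overlap is common among acetylated regions: 69.7% of all regions in the BMDM table had an RBPJ peak in both BMDM libraries, 30.8% an LXR peak and 27.7% a SMAD4 peak. In the liver table, 41.2% of all regions had an LXR peak in both Kupffer cell libraries, 35.5% a SMAD4 peak and 10.9% an RBPJ peak. Of the 9 Il18bp regions there, 6 had LXR, 5 SMAD4 and 0 RBPJ in both libraries, and of the 11 in BMDM, 5 had LXR, 5 SMAD4 and 8 RBPJ.

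The genes around Il18bp did not follow it at gene level. Within 100000 bp, Numa1, a mitotic spindle protein, Lrrc51, Rnf121, a membrane ubiquitin ligase, and Xntrpc gave regions in both tables, and none was called in any of the 4 comparisons. Without RLM replicate 1, Rnf121 and Xntrpc were called lower in RLM against monocytes (-1.46 and -1.04). Xndc1, tested only in BMDM, was not called, and Trpc2 was not tested. Numa1, whose gene body holds the element 19 kb downstream, measured 73.1 ± 2.84 CPM (SD, n = 2) in Kupffer cells and 86.2 ± 2.64 in RLM. With DLL4 it was 230 ± 3.90 CPM against 201 ± 0.779 (log2 difference 0.20, SE 0.06, edgeR adjusted p = 0.00646), which is under 2-fold. Rnf121, whose introns hold the distal Il18bp elements, measured 9.36 ± 0.374 CPM in Kupffer cells and 8.36 ± 4.99 in RLM at its own named region (log2 difference 0.18, SE 0.33, edgeR adjusted p = 0.652). An intergenic region named for Lrrc51, 69 kb downstream of Il18bp, was called higher in Kupffer cells against monocytes (9.66 ± 0.852 against 2.35 ± 0.995 CPM, log2 difference 2.04, SE 0.36). The same region was called higher in RLM against monocytes (1.12, SE 0.38, edgeR adjusted p = 0.0233) and was under 2-fold from RLM to Kupffer cells (0.92, SE 0.34, edgeR adjusted p = 0.0239), so it stepped up in the same order as Il18bp. Regions are named for the nearest start, so which gene the intronic elements act on was not measured.

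Il18 itself and its receptor took a different course. Il18 fell from 24.4 ± 1.95 CPM (SD, n = 2) in monocytes to 6.79 ± 0.797 in RLM (log2 difference -1.84, SE 0.24, edgeR adjusted p = 4.31e-07) and rose to 31.2 ± 5.06 in Kupffer cells (2.20, SE 0.24, edgeR adjusted p = 4.39e-09). With DLL4 it was 25.8 ± 4.57 against 21.5 ± 0.759 CPM, which was not called (0.27, SE 0.14, edgeR adjusted p = 0.178). Il18r1, the ligand-binding receptor chain, was 1.42 ± 0.202 CPM in Kupffer cells and 4.29 ± 1.07 in RLM, and Il18rap, the accessory chain, 1.48 ± 0.485 and 5.60 ± 0.311. Both fell in Kupffer cells (log2 difference -1.57, SE 0.46, edgeR adjusted p = 0.00495, and -1.85, SE 0.43, edgeR adjusted p = 0.000579), at levels of few tags. The Il18r1 call was lost without RLM replicate 2 (-1.24, adjusted p = 0.0763), and the Il18rap call was lost with a 10000 bp window around the start (-0.47, adjusted p = 0.641). Of the 4 list members other than Il18bp (Il18, Il18r1, Il18rap and the inhibitory receptor Sigirr), 0 were called higher and 1 lower in RLM against monocytes, 1 and 3 in Kupffer cells against RLM, 0 and 3 in Kupffer cells against monocytes, and 0 and 0 with DLL4, where 0 were higher and 1 was lower at an unadjusted p under 0.05 in edgeR and DESeq2 called 0. The Sigirr call in Kupffer cells against RLM was lost without RLM replicate 2 (-0.85) or Kupffer cell replicate 2 (-1.17). Against monocytes the Sigirr call was lost without Kupffer cell replicate 2 (-1.28, adjusted p = 0.0919) and the Il18rap call with the 10000 bp window (-1.57, adjusted p = 0.0571). The list's median log2 difference was -1.51 in Kupffer cells against RLM, beside -0.07 over all genes tested. The counts of this and the later lists stand beside the shares of all genes called. These were 6.2% higher and 5.8% lower in RLM against monocytes and 14.6% and 12.8% in Kupffer cells against RLM. They were 18.4% and 14.4% in Kupffer cells against monocytes, and 2.6% and 1.28% with DLL4.

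Upstream of interleukin-18, 5 of 13 tested inflammasome and pyroptosis genes were called higher in Kupffer cells against RLM and 0 lower, 7 and 0 against monocytes, 1 and 0 in RLM against monocytes, and 0 and 0 with DLL4. At an unadjusted p under 0.05 in edgeR, 9 were higher and 0 lower with DLL4, all under 2-fold, and DESeq2 called 0. Calls lost under an alternative were Pycard in RLM (0.99 without monocyte or RLM replicate 2), Ninj1 against RLM (0.72 under total-tag scaling, 0.93 without Kupffer cell replicate 2 and 0.97 with non-overlapping regions) and Naip5 against monocytes (0.92 under total-tag scaling). The list's median log2 difference was 0.80 in Kupffer cells against RLM and 0.20 with DLL4, beside -0.07 and -0.01 over all genes. Nlrc4, a sensor platform for bacterial flagellin, rose from 59.6 ± 8.63 to 298 ± 51.9 CPM (SD, n = 2) between RLM and Kupffer cells (log2 difference 2.33, SE 0.17, edgeR adjusted p = 5.10e-13). With DLL4 Nlrc4 stayed under 2-fold (0.64, SE 0.10, edgeR adjusted p = 1.99e-07).

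Of 9 tested interleukin-1 family genes, 2 were called higher and 0 lower in Kupffer cells against RLM, 1 and 1 in RLM against monocytes, 2 and 1 in Kupffer cells against monocytes, and 1 and 1 with DLL4. The list's median log2 differences were 0.45, 0.005, 0.37 and 0.38 in the same order, beside -0.07, 0.07, -0.08 and -0.01 over all genes tested. Several calls of list members were lost under an alternative. Il1a in RLM (1.00) dropped below 2-fold without either Kupffer cell library, without monocyte replicate 2 (0.71) or RLM replicate 2 (0.78), with no filter, with the replicate block and with non-overlapping regions (0.65). Il1b in Kupffer cells against RLM was lost under total-tag scaling (0.82) and without Kupffer cell replicate 2 (0.9954). Il33 against monocytes was lost under total-tag scaling (0.90) and without monocyte replicate 2 (0.94), and the DLL4 call of Il1rl1, the interleukin-33 receptor, with the 10000 bp window (-0.59, adjusted p = 0.58). Il1a, an alarmin cytokine, rose from 55.1 ± 9.30 CPM in RLM to 268 ± 35.5 in Kupffer cells (log2 difference 2.28, SE 0.18, edgeR adjusted p = 8.12e-12). Il1b, the other substrate of the inflammasome, rose with DLL4 from 42.2 ± 0.923 to 111 ± 0.666 CPM (1.40, SE 0.09, edgeR adjusted p = 5.78e-21). Below the receptors, of 12 signalling genes, 1 was called higher and 1 lower in RLM against monocytes, 1 and 0 in Kupffer cells against RLM, 2 and 3 in Kupffer cells against monocytes, and 0 and 0 with DLL4, where 5 were higher at an unadjusted p under 0.05 in edgeR and DESeq2 called 0. Their median log2 differences were 0.09, -0.17, 0.09 and 0.11 in the same order, beside 0.07, -0.07, -0.08 and -0.01 over all genes tested. Irak2 against RLM was lost with the 10000 bp window (0.94) and Irak3 against monocytes without Kupffer cell replicate 2 (-0.97). Nfkbia, the inhibitor of NF-κB, rose from 95.1 ± 0.147 CPM in monocytes to 370 ± 20.9 in RLM (log2 difference 1.96, SE 0.15, edgeR adjusted p = 1.23e-11).

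Irf1 and Cebpb, whose products are known to act on the Il18bp promoter, took different courses. Irf1 rose from RLM to Kupffer cells, 167 ± 6.35 to 406 ± 20.3 CPM (log2 difference 1.28, SE 0.15, edgeR adjusted p = 8.99e-09), and with DLL4, 148 ± 1.54 to 316 ± 0.885 CPM (1.09, SE 0.06, edgeR adjusted p = 2.07e-25). Under scaling by total tags both differences dropped below 2-fold (0.96 and 0.99), and so they did with a 10000 bp window (0.83 and 0.70). Cebpb fell from 175 ± 8.15 CPM in RLM to 61.3 ± 29.6 in Kupffer cells (-1.54, SE 0.24, edgeR adjusted p = 6.75e-05), and with DLL4 it was not called (-0.12, SE 0.10, edgeR adjusted p = 0.398). Over the 14 genes of the interferon-gamma pathway and its factors, 0 were called higher and 0 lower in RLM against monocytes, 2 and 1 in Kupffer cells against RLM, 2 and 1 in Kupffer cells against monocytes, and 1 and 0 with DLL4. In RLM against monocytes 3 were higher and 0 lower at an unadjusted p under 0.05 in edgeR, and DESeq2 called 0. The list's median log2 differences over the 4 comparisons, in the order above, were 0.10, 0.53, 0.57 and 0.19. Over all genes tested they were 0.07, -0.07, -0.08 and -0.01.

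Of 21 tested interferon-induced genes, 2 were called higher in RLM against monocytes, 11 in Kupffer cells against RLM, 12 in Kupffer cells against monocytes and 5 with DLL4, and 0 were called lower in any of these. Of the 2 in RLM, Iigp1 was lost without monocyte replicate 1 (0.95), without RLM replicate 2 (0.93) and with non-overlapping regions (1.04, past 2-fold but not the threshold on p). Medians of the log2 difference were 0.10, 1.08, 1.18 and 0.15, beside 0.07, -0.07, -0.08 and -0.01 over all genes tested. Of the 5 called with DLL4, all but Ciita were guanylate-binding protein genes. At an unadjusted p under 0.05 in edgeR, 8 members were higher and 3 lower with DLL4. Gbp3, a guanylate-binding protein, rose from 30.7 ± 3.17 to 96.9 ± 0.329 CPM with DLL4 (1.66, SE 0.10, edgeR adjusted p = 1.66e-22) and from 60.7 ± 2.63 to 157 ± 14.7 CPM from RLM to Kupffer cells (1.37, SE 0.17, edgeR adjusted p = 3.23e-08). Ciita, the master regulator of MHC class II genes, rose from 39.6 ± 4.79 to 106 ± 6.01 CPM with DLL4 (1.42, SE 0.09, edgeR adjusted p = 3.90e-20). Cd274, which encodes the checkpoint ligand PD-L1, rose in RLM against monocytes (1.61, SE 0.16, edgeR adjusted p = 2.90e-09).

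Among Notch genes, Hes1, a direct target of the pathway, rose with DLL4 from 8.44 ± 1.04 to 74.4 ± 4.79 CPM (log2 difference 3.13, SE 0.13, edgeR adjusted p = 9.54e-31). It rose from 33.1 ± 13.8 CPM in monocytes to 215 ± 31.8 in RLM (2.70, SE 0.21, edgeR adjusted p = 1.37e-09) and was not called between RLM and Kupffer cells (258 ± 1.53 CPM, 0.27, SE 0.19, edgeR adjusted p = 0.258). Rbpj was under 2-fold in each comparison, except for -1.16 in Kupffer cells against RLM under scaling by total tags, with 209 ± 2.92 CPM with DLL4 against 372 ± 38.9 untreated (-0.83, SE 0.06, edgeR adjusted p = 5.24e-18). Of the Notch list, 1 of 18 tested genes was called higher and 0 lower with DLL4, 5 and 0 of 19 in RLM against monocytes, 3 and 3 in Kupffer cells against RLM, and 5 and 3 in Kupffer cells against monocytes. Over all genes tested, the shares in the same order were 2.6% and 1.28%, 6.2% and 5.8%, 14.6% and 12.8%, and 18.4% and 14.4%. The list's median log2 differences were 0.03, 0.41, -0.05 and 0.36, beside -0.01, 0.07, -0.07 and -0.08 over all genes. Hes5, another target, lost its call without RLM replicate 1 both in RLM against monocytes (0.57) and in Kupffer cells against RLM (-0.47), and also with DESeq2 and with non-overlapping regions. The first was further lost with the replicate block (1.21), total-tag scaling and without monocyte replicate 1, and the second with the 10000 bp window and without Kupffer cell replicate 2. Hey1 in RLM was -0.034 with the 10000 bp window and 0.93 without RLM replicate 1. Notch3 in Kupffer cells was lost against RLM with that window (-1.36) and against both groups without Kupffer cell replicate 2 (-2.17 and -2.03), and Notch1 against RLM under total-tag scaling (0.92).

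Of 8 other genes that restrain inflammation (Il10, Il10ra, Il1rn, Il4ra, Tgfb1, Tnfrsf1b and the intracellular inhibitors Tnfaip3 and Socs3), 1 was called higher in RLM against monocytes, 1 in Kupffer cells against RLM, 3 in Kupffer cells against monocytes and 0 with DLL4, and 0 were called lower. Tgfb1 against monocytes was lost under total-tag scaling (0.74) and without Kupffer cell replicate 2 (0.84) or monocyte replicate 1 (0.82). With DLL4, 7 were higher at an unadjusted p under 0.05 in edgeR, and DESeq2 called 0. The list's median log2 differences over the 4 comparisons, in the order above, were 0.32, 0.70, 0.89 and 0.38. Over all genes tested they were 0.07, -0.07, -0.08 and -0.01. Il10, the anti-inflammatory cytokine, rose at each liver step, from 16.7 ± 0.561 CPM in monocytes to 42.3 ± 1.36 in RLM (log2 difference 1.34, SE 0.18, edgeR adjusted p = 3.70e-07) and 204 ± 4.04 in Kupffer cells (2.27, SE 0.17, edgeR adjusted p = 8.36e-13). With DLL4 Il10 was under 2-fold (0.79, SE 0.09, edgeR adjusted p = 6.61e-11).

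The genes whose course over the 10 libraries was most like that of Il18bp were Slc40a1, Mir1843a, Sema6d, Gast and Prss30. Likeness was the root mean square difference of log2(CPM + 1), centred within each table. The comparison took 9593 genes with a mean of at least 10 CPM in each table, and predicted symbols were then left out. These 5 had values of 0.14 to 0.26 where the median remaining gene had 1.44. The BMDM libraries that chose Il18bp are part of this likeness. Slc40a1, the iron exporter ferroportin, was 18.4 ± 0.110 CPM in monocytes, 87.0 ± 9.08 in RLM, 388 ± 51.6 in Kupffer cells, 420 ± 13.2 in untreated and 1004 ± 27.8 in DLL4-treated BMDM. With the 10000 bp window the Slc40a1 log2 difference in RLM against monocytes was 0.85 in place of 2.24. Sema6d, a transmembrane semaphorin, was 34.6 ± 8.61 CPM in monocytes, 100 ± 17.3 in RLM, 740 ± 64.6 in Kupffer cells, 28.3 ± 0.625 in untreated and 72.9 ± 1.27 in DLL4-treated BMDM.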

How the data were processed

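H3K27ac tags in 10 libraries and factor peaks in 12 were analysed. The authors deposited raw counts of tags per 2000 bp region, and per the submitters' processing notes Bowtie2, HOMER and mm10 were used; roles and versions are not given in the sources used here. Peak lists were called per library with HOMER against 1 input, at 4-fold over input and an FDR of 0.001, per the file headers. They give a normalized tag signal (per 10 M tags), a score and a fold over input, all by the authors, and the score was not used. Some headers name other replicate numbers than the labels, and the labels were followed. A shared input library served 2 factors.

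Counts were fitted per region, and per gene on sums over regions within 100000 bp, with edgeR 4.0.16 in R 4.3.3 (TMM, filterByExpr, robust quasi-likelihood test, Benjamini-Hochberg adjustment over all rows tested), after a check on simulated data. The 6 liver libraries and the 4 BMDM libraries were separate fits. Alternatives were RLE factors, total-tag scaling, DESeq2 1.42.0, no filter, each library left out, a replicate block, a 10000 bp window and non-overlapping regions.

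The members and gene lists were chosen with earlier results of these data known. Named genes are all Il18bp regions, the genes of the locus, set genes of interest (Il18, Il18r1, Il18rap, Irf1, Cebpb, Hes1 and Rbpj), list members called with the largest folds and the 5 genes of most like course; 1 further gene named by the rule is not reported here. Sequences are from RefSeq, GRCm38.p6.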

Additional observations from a re-analysis of the deposited data

How the results depend on the processing

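The 3 liver differences of Il18bp kept their call under all 13 alternatives each, with log2 values of 1.77 to 2.14 in RLM against monocytes, 2.04 to 2.61 in Kupffer cells against RLM and 4.06 to 4.62 in Kupffer cells against monocytes. The DLL4 difference ranged from 1.45 to 1.60, with 1.45 (1.445) under scaling by total tags. With the replicate block the Il18bp log2 differences were 1.99, 2.36, 4.35 and 1.54, and replicate numbers did not pair the samples (correlations of deviations -0.02 to 0.05). Scaling by total tags moved the median gene from -0.07 to -0.40 in Kupffer cells against RLM and from -0.08 to -0.37 against monocytes. Genes called there were then 1549 higher and 3528 lower in place of 2444 and 2142, and 2324 and 3661 in place of 3084 and 2411. With DLL4 they were 349 and 293 in place of 427 and 211. The share of calls that were higher thus went from 53.3% to 30.5%, 56.1% to 38.8% and 66.9% to 54.4%. Genes called lower in Kupffer cells against RLM numbered 1314 with the 10000 bp window, and 1172 to 2148 with a library left out, the lowest without Kupffer cell replicate 2, which left 2228 higher. Regions called lower ranged from 5332 to 11910, again lowest without that library, beside 11283. Hey1 in RLM against monocytes, 1.13, became -0.034 with the 10000 bp window. Elements with a peak in both libraries became 3 in place of 5 for RBPJ in BMDM at 8-fold over input, 2 in place of 3 for LXR and for SMAD4 in BMDM, and kept their value for the other 3 groups. With any peak within 100000 bp the counts were 7 (LXR, BMDM), 8 (LXR, Kupffer cells), 21 (RBPJ, BMDM), 8 (SMAD4, BMDM) and 8 (SMAD4, Kupffer cell nuclei), since the wider window holds more peaks. The other causes were not tested. With 2 libraries a group and few tags in monocytes, differences at the elements 10, 17 and 19 kb away are the least precise.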
